A study of Sus scrofa domesticus with 6 samples.

Results

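Chemokines, interleukins, the colony stimulating factors of granulocytes and macrophages, and the receptors of all these were followed in the mandibular condyle of miniature pig embryos at 45 and 85 days. The genes were chosen by name alone: 128 of the 25322 gene rows in the deposited table carried a matching name, and keeping the row with the most counts for each name left 125 genes. The series holds 6 RNA libraries of dissected cartilage, 3 per age, with no treatment or genetic change at either age. The labels describe the source as chondrocytes and osteocytes, give no sex, and do not say whether embryos were pooled or whether each library came from its own animal. The p-values therefore measure only the spread between these libraries, which may be technical. The age comparison follows the condylar cartilage as it ossifies.

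Chemokines are small secreted proteins that direct cell movement through G protein-coupled receptors, whereas atypical chemokine receptors bind chemokines without that signalling and shape their local supply. Interleukins mostly act through paired receptor chains that recruit JAK kinases and STAT factors, or, in the IL-1 and IL-17 families, adaptors that lead to NF-kB. In growing bone these signals are known from the homing of blood-forming and vessel cells to CXCL12, from osteoclast precursors that carry chemokine receptors, and from gp130 cytokines such as IL-6 and IL-11 that act on bone cells.

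Total counts per library ran from 12546729 to 16559616. All 7 chondrocyte markers were lower at day 85 at an unadjusted p under 0.05, and SOX9, HAPLN1 and COL11A1 were called lower. Their summed level ran from 12240 to 14900 CPM (counts scaled to a common library size) at day 45 and was 1360, 4865 and 3001 CPM at day 85. COL2A1, the main collagen of cartilage, averaged 4280 ± 651 CPM at day 45 (SD, n = 3) and stood at 28.8, 1074 and 50.6 CPM at day 85, and the cartilage matrix gene MATN1 had 2, 212 and 2 counts at day 85. MATN1 was near 0 in replicates 1 and 3 of day 85, while ACAN, the main cartilage proteoglycan, kept 233 and 990 CPM there. The second library of day 85 stood apart from the other two of its age. Across genes, its Spearman's rho with these was 0.931 and 0.938, against 0.981 between them, and its summed level of 8 osteoclast markers was 13380 CPM against 1874 and 2298. It also kept more of the COL2A1 signal and had 2171 CPM of skeletal muscle markers, against 28140 and 25230 in replicates 1 and 3, so fits without it compare day 45 with the pair of libraries richest in muscle markers. All levels in CPM below are normalised by the trimmed mean of M-values (TMM), and fold changes are day 85 over day 45, with log2FC for the log2 fold change and SE for its standard error. Each adjusted p is from the quasi-likelihood test of edgeR, corrected by the Benjamini-Hochberg method over all 15022 genes tested. A gene was called when its adjusted p was under 0.05. In this bulk tissue fewer cells of a type and less RNA per cell cannot be told apart.

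More of these genes were called higher than lower at day 85. Of the 125 genes, 64 passed the filter on low counts and were tested. Of these, 10 were called higher and 1 lower. The called risers were the receptors CXCR4, ACKR1, ACKR3, IL4R, IL6R, IL10RA and CSF2RB and the chemokines CXCL16, CCL4 and CCL24. The called faller was IL1RL1, a receptor of the IL-1 family. The risers made up 15.6% of the tested members, against 3.9% of all tested genes, and the faller 1.56% against 2.66%. In either direction 6.56% of all tested genes were called. The median log2 fold change was 0.78 over tested members and 0.02 over all tested genes, and 47 of the 64, or 73.4%, had a positive one, against 51.8% of all tested genes. In 24 members (37.5%) all libraries of day 85 lay above all of day 45, against 17.4% of all tested genes. The reverse held for 4 members (6.25%), against 17.6%.

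These calls rest on few libraries. Without day 85 replicate 2 all 11 called members kept their call, in a fit that called 12.3% of all genes higher and 10% lower. Without day 45 replicates 1, 2 and 3 in turn, 0, 0 and 1 (ACKR1) of the 11 did. Those fits called 0.0262%, 0% and 0.0912% of all genes higher and 0%, 0% and 0.0391% lower. Without day 85 replicate 1 none did, and without replicate 3 IL4R, IL10RA and ACKR3 did, where 0.0849% and 0.611% of all genes were higher and 0.0196% and 0.164% lower. Counted by an unadjusted p under 0.05, 24 members were higher and 4 lower with all libraries (15.8% and 13.3% of all tested genes). Those 5 fits gave 20 to 29 and 3 to 7, from 67 to 71 tested members. The share of all genes at that p was not taken in those 5 fits, so these counts have no background there. The count also depends on the tool: DESeq2, which gave 82 members an adjusted p, called 28 higher and 4 lower (34.1% and 4.88%, against 12.2% and 10.5% of all genes with one). All 11 above were among them.

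**Figure D1:**
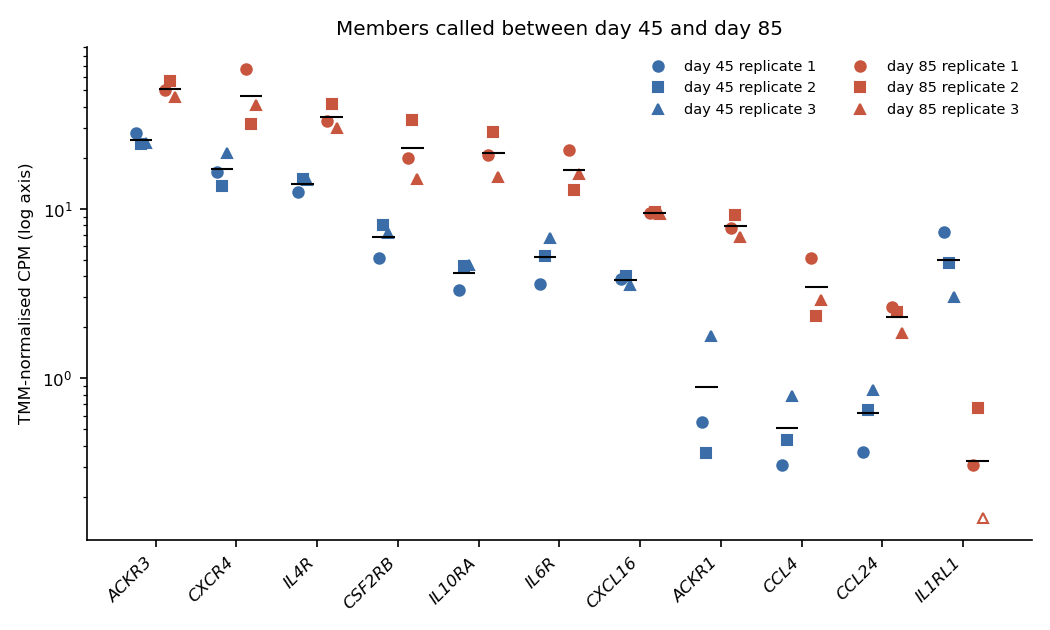
Level of the 11 called members in each library, as TMM-normalised CPM on a log axis (blue, day 45; red, day 85; marker shape, replicate number; black line, mean of 3). The open marker stands for the library without a count of IL1RL1, drawn at the foot of the axis; in each gene the ages do not overlap.

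CXCL12 led the members in level. CXCL12, the ligand that retains blood-forming and vessel cells in bone, had the highest level per gene length of all members, with a deposited FPKM of 71.2 ± 47.4 at day 45 and 90.1 ± 8.88 at day 85 (SD, n = 3). Its CPM values were 226, 161 and 499 at day 45 and then 417, 388 and 369. The ages overlap, with day 45 replicate 3 the highest library of all, and the ligand was not called (log2FC 0.41, SE 0.40, adjusted p = 0.537).

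Both receptors of CXCL12 were called higher. CXCR4, the receptor that signals for migration, stood at 16.4, 13.6 and 21.3 CPM at day 45 and at 66.5, 31.7 and 41.0 CPM at day 85. Every day 85 library lay above every day 45 library, with replicate 2 the lowest of the later age, and the gene rose 2.71-fold (log2FC 1.44, SE 0.31, adjusted p = 0.0449). That call was lost with library totals as the scaling and in limma (adjusted p = 0.0607 and, in limma-voom, 0.0536), while DESeq2 gave 2.96e-05. ACKR3, the atypical receptor that takes CXCL12 up and removes it, had tighter values, at 27.9, 24.2 and 24.6 CPM and then 50.4, 56.8 and 45.9 CPM. It rose 2.00-fold (log2FC 1.00, SE 0.13, adjusted p = 0.0200) and had an FPKM of 46.1 ± 3.76 at day 85, above the 24.5 ± 10.6 of CXCR4.

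ACKR1, the atypical receptor of red cells and of the endothelium of small veins, had the largest rise among the called members. It had 9, 5 and 27 counts at day 45 and 99, 138 and 103 at day 85, or 0.551, 0.361 and 1.77 CPM and then 7.65, 9.20 and 6.79 CPM. The ages are far apart, and day 45 replicate 3 is the highest of its age. The gene rose 8.72-fold (log2FC 3.12, SE 0.54, adjusted p = 0.0301), with a log2 fold change of 2.76 to 4.07 when each library was left out. The other atypical receptors were low: CCRL2, a chemerin-binding relative, averaged 1.48 and 2.83 CPM (log2FC 0.93, SE 0.40, adjusted p = 0.179), and ACKR2 and ACKR4 averaged under 1 CPM at both ages.

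Among the other chemokine receptors all 6 that could be tested had positive log2 fold changes, but CXCR4 was the 1 called. CCR1, a receptor for CCL3 and CCL5 found on monocytes and osteoclasts, stood at 2.57, 10.4 and 2.36 CPM at day 45 and at 19.0, 141 and 18.8 CPM at day 85. The ages do not overlap, yet replicate 2 is the highest library of each age. Its log2FC was 3.56 (SE 1.09, adjusted p = 0.101), and it was 1.91 without day 85 replicate 2 (adjusted p = 0.0764). CX3CR1, the fractalkine receptor of monocytes and macrophages, was at 2.94, 3.25 and 5.04 CPM and then 7.27, 10.3 and 7.06 CPM. The ages did not overlap, and it lay just outside the threshold (log2FC 1.13, SE 0.29, adjusted p = 0.0621). CCR10, a receptor for skin and mucosal chemokines, averaged 3.50 ± 0.897 and 6.63 ± 2.86 CPM (adjusted p = 0.181). It passed without day 85 replicate 2 (log2FC 1.24, adjusted p = 0.0203), and with any other library dropped the adjusted p was at least 0.210. CCR2, the receptor of CCL2, averaged 0.936 ± 0.674 and 1.60 ± 1.10 CPM (adjusted p = 0.469).

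Of 18 CC chemokines, 9 could be tested and 2 were called higher. CCL4, a chemokine made by activated macrophages and lymphocytes, had 5, 6 and 12 counts at day 45 and 66, 35 and 44 at day 85. All later libraries are higher, and it rose 6.68-fold (log2FC 2.74, SE 0.48, adjusted p = 0.0308). CCL24, a ligand of the eosinophil receptor CCR3, had 6, 9 and 13 counts and then 34, 37 and 28, and rose 3.69-fold (log2FC 1.88, SE 0.38, adjusted p = 0.0389). Both are low genes, at 3.45 and 2.31 CPM on average at day 85. CCL4 has relatives among the CC chemokines, and whether its reads are shared with them was not tested, so its value is uncertain.

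CCL2, the monocyte attractant that binds CCR2, was more abundant but was not called. It stood at 6.43, 4.11 and 8.90 CPM at day 45 and at 16.2, 20.1 and 10.7 CPM at day 85, with no overlap (log2FC 1.27, SE 0.35, adjusted p = 0.0720). CCL5, a ligand of CCR1, averaged 0.937 ± 0.561 and 2.09 ± 0.625 CPM (adjusted p = 0.162).

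The CC chemokines of lymph vessels and lymphoid stroma, CCL21 and CCL19, varied more within day 45 than between the ages. CCL21 was at 43.2, 11.1 and 62.4 CPM at day 45 and at 48.9, 53.6 and 36.3 CPM at day 85 (log2FC 0.25, SE 0.57, adjusted p = 0.801). CCL19 was at 6.80, 2.02 and 60.3 CPM and then 5.57, 6.60 and 7.05 CPM, so that day 45 replicate 3 alone is high. Its log2 fold change of -1.84 (SE 1.14, adjusted p = 0.328) became 0.53 without that library. CCR7, the receptor of both, was not tested, with 7, 9 and 22 counts at day 45 and 7, 20 and 7 at day 85.

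Of 11 CXC and CX3C chemokines, 6 were tested and CXCL16 was called higher. CXCL16, a membrane-bound chemokine that also takes up oxidised lipids, had the closest replicates of the called genes, at 3.86, 4.04 and 3.53 CPM at day 45 and at 9.51, 9.60 and 9.36 CPM at day 85. It rose 2.49-fold (log2FC 1.32, SE 0.17, adjusted p = 0.0196). Its receptor CXCR6 had 0, 2 and 0 counts and then 6, 0 and 5, too few to test. CX3CL1, the fractalkine that tethers monocytes to vessel walls, was at 1.47, 2.74 and 3.47 CPM and then 4.72, 7.47 and 6.86 CPM, not overlapping and not called (log2FC 1.31, SE 0.36, adjusted p = 0.0727). CXCL14, an epithelial and stromal chemokine, ranged from 6.71 to 27.4 CPM at day 45 and from 24.7 to 59.9 CPM at day 85 (log2FC 1.19, SE 0.55, adjusted p = 0.215).

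The interferon-induced CXCL10 came mainly from a single library, with 4, 4 and 14 counts at day 45 and 21, 119 and 3 at day 85 (log2FC 2.73, SE 1.25, adjusted p = 0.207). It was 0.86 without day 85 replicate 2. Its neighbours CXCL9 and CXCL11 had no count at day 45, and 3, 15 and 0 and 0, 6 and 0 counts at day 85. CXCL13, the attractant of B cells, had 30, 8 and 45 counts and then 5, 11 and 6 (log2FC -1.80, SE 0.63, adjusted p = 0.122).

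**Figure D2:**
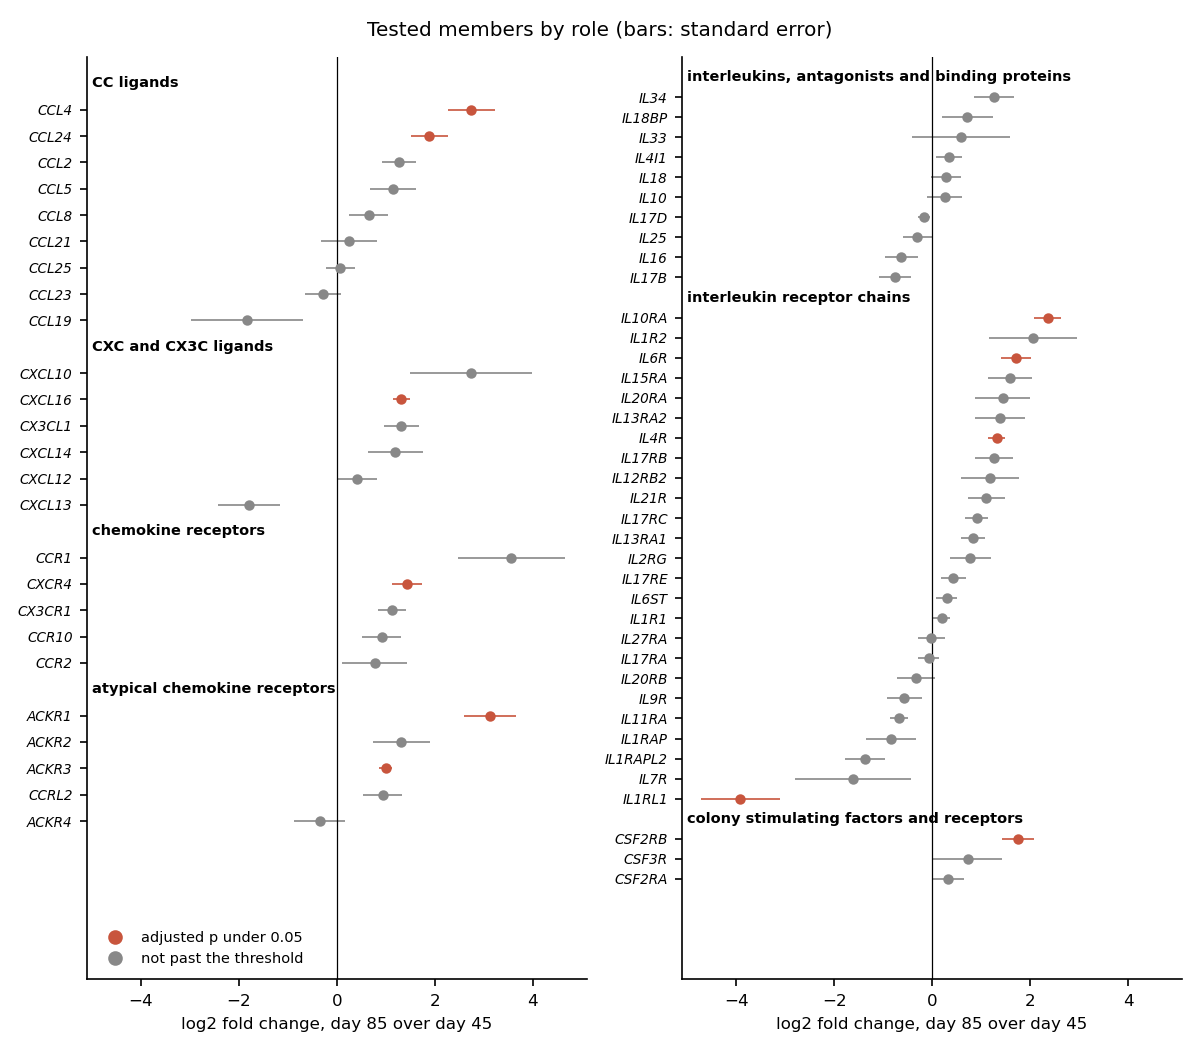
Log2 fold change of 63 of the 64 tested members, day 85 over day 45, with its standard error, grouped by role (red, adjusted p under 0.05 in edgeR; grey, not past the threshold). The 10 called risers spread over 6 of the 7 role groups, with none among the interleukins, and IL1RL1 is the 1 called member on the left.

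Interleukin receptor chains held 4 of the 11 called members, from 25 tested. Of these chains 12% were called higher and 4% lower, against 15.6% and 1.56% of all tested members. Over all tested genes the shares were 3.9% and 2.66%. IL10RA, the ligand-binding chain for the anti-inflammatory IL-10, stood at 3.31, 4.62 and 4.65 CPM at day 45 and at 20.6, 28.5 and 15.4 CPM at day 85. Every later library is more than 3 times any earlier one, and the gene rose 5.13-fold (log2FC 2.36, SE 0.28, adjusted p = 0.0178). IL4R, the chain shared by the receptors for IL-4 and IL-13, stood at 12.5, 15.0 and 14.7 CPM and then at 33.0, 41.8 and 30.1 CPM. It rose 2.49-fold (log2FC 1.31, SE 0.17, adjusted p = 0.0196). IL6R, the binding chain for IL-6, stood at 3.61, 5.27 and 6.74 CPM and then at 22.1, 13 and 16.0 CPM, and rose 3.27-fold (log2FC 1.71, SE 0.30, adjusted p = 0.0314).

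Most ligands of these rising receptors had few counts. IL4 had 2 counts in all 6 libraries together, IL13 had 5 and IL6 had 8. IL10 passed the filter, with 21, 16 and 11 counts at day 45 and 19, 21 and 14 at day 85 (log2FC 0.26, SE 0.36, adjusted p = 0.664). Its FPKM of 0.793 ± 0.191 at day 45 was above the 0.532 ± 0.111 of IL10RA, and at day 85 the values were 0.939 ± 0.229 and 2.64 ± 0.715. CSF2 had no count, which allows up to 0.0338 CPM over the libraries together. That limit covers counting error only.

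IL1RL1 fell. This gene encodes ST2, the receptor for the alarmin IL-33, and had 119, 66 and 46 counts at day 45 and 4, 10 and 0 at day 85. No library overlaps between the ages. It fell 15.1-fold on the fitted scale (log2FC -3.92, SE 0.80, adjusted p = 0.0431), with -5.05 without day 85 replicate 2, and it was not called by limma-voom (adjusted p = 0.0512). It was the 1 tested member that passed the filter through day 45 libraries alone, so a difference was built into its passing. Among the called risers, ACKR1, CCL4 and CCL24 passed only with the help of their day 85 libraries. Each had fewer than 3 day 45 libraries past the cut of 0.675 CPM, so a difference was built into their passing too. IL33, the ligand of IL1RL1, had 129, 1 and 67 counts and then 93, 100 and 75. Day 45 replicate 2 is nearly empty while the others overlap between ages (adjusted p = 0.724). IL1RAP, the accessory chain of this receptor, averaged 1.66 ± 0.948 and 0.930 ± 0.366 CPM (adjusted p = 0.318).

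Other chains of the IL-1 family followed other courses. IL1R1, the signalling receptor of IL-1, was at 53.1, 82.7 and 69.2 CPM at day 45 and at 76.7, 72.5 and 85.1 CPM at day 85 (log2FC 0.19, SE 0.18, adjusted p = 0.501). IL1R2, the decoy that binds IL-1 without signalling, had 7, 56 and 20 counts and then 55, 235 and 60, highest in replicate 2 at each age (log2FC 2.06, SE 0.90, adjusted p = 0.190). A second row of the same name, with 4, 18 and 12 and then 13, 110 and 18 counts, had a log2FC of 2.05 (SE 0.96, adjusted p = 0.215). The ligand IL1A had 21 counts at day 45 and 37 at day 85 and was not tested.

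The most abundant interleukin receptor chains per gene length were IL13RA1 and IL11RA, and they moved apart without being called. IL13RA1, a binding chain for IL-13, was at 91.7, 86.8 and 118 CPM at day 45 and at 216, 122 and 191 CPM at day 85, with all later libraries higher (log2FC 0.83, SE 0.24, adjusted p = 0.0789). It passed without day 85 replicate 2 (adjusted p = 0.00795). IL11RA, the receptor of the bone-forming cytokine IL-11, was at 247, 307 and 253 CPM and then 136, 161 and 206 CPM, with all later libraries lower (log2FC -0.69, SE 0.18, adjusted p = 0.0702). IL6ST, the gp130 chain that IL6R and IL11RA both need to signal, was at 30.7, 35.2 and 52.3 CPM and then 49.3, 43.3 and 52.9 CPM, overlapping (log2FC 0.30, SE 0.21, adjusted p = 0.386).

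Receptors of the IL-17 family were expressed at both ages. IL17RC was at 29.1, 33.7 and 25.9 CPM at day 45 and at 66.5, 37.9 and 61.9 CPM at day 85, not overlapping (log2FC 0.91, SE 0.23, adjusted p = 0.0629), and it passed without day 85 replicate 2 (adjusted p = 0.00401). Its partner chain IL17RA averaged 22.2 ± 2.76 and 21.1 ± 5.29 CPM (log2FC -0.07, SE 0.21, adjusted p = 0.845). IL13RA2, the decoy of IL-13, averaged 3.22 ± 1.12 and 8.44 ± 5.40 CPM with an adjusted p of 0.137. It passed when day 85 replicate 2 was dropped (adjusted p = 0.0339), and with any other library dropped the adjusted p ran from 0.202 to 0.315. IL21R, IL2RG, IL15RA and IL17RB, chains of lymphoid and epithelial cytokine receptors, had log2 fold changes of 1.11, 0.78, 1.58 and 1.26, none called.

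IL1RAPL2, a synaptic relative that the naming rule takes in, had a log2FC of -1.37 (SE 0.40, adjusted p = 0.0851). IL7R, the IL-7 receptor of lymphoid cells, had 14, 1 and 88 counts at day 45 and 12, 10 and 9 at day 85, high in day 45 replicate 3 alone (log2FC -1.61, SE 1.18, adjusted p = 0.403, and 0.58 without that library).

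Of the interleukins themselves and their soluble antagonists, 10 of 34 could be tested and 0 were called in edgeR, while an unadjusted p under 0.05 was reached by 1 higher and 0 lower. IL18BP, the secreted inhibitor of IL-18, had the highest FPKM of the group, 27.5 ± 4.46 at day 45 and 43.5 ± 31.0 at day 85. Its CPM values were 60.9, 70.0 and 45.3 and then 51.6, 181 and 56.7, so a single library stands out (log2FC 0.72, SE 0.52, adjusted p = 0.400). It was -0.11 without day 85 replicate 2. IL18 averaged 5.53 ± 2.30 and 6.74 ± 0.262 CPM (adjusted p = 0.574). IL17D was steady, at 31.5, 31.9 and 31.0 CPM and then 31.3, 25.6 and 27.6 CPM (log2FC -0.16, SE 0.12, adjusted p = 0.423), and IL17B, a cytokine of cartilage and nerve tissue, averaged 18.5 ± 5.34 and 11.01 ± 4.32 CPM (adjusted p = 0.183).

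IL16, a leukocyte attractant made as a precursor in many cells, was at 29.3, 24.9 and 29.9 CPM and then 11.9, 28.7 and 13.7 CPM. Day 85 replicate 2 lies within the day 45 range (log2FC -0.63, SE 0.34, adjusted p = 0.263). Without that library it was -1.13 (adjusted p = 0.00628). IL34, the second ligand of the macrophage receptor CSF1R, was at 1.10, 0.938 and 1.24 CPM and then 1.70, 4.13 and 2.04 CPM (adjusted p = 0.104).

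Among the colony stimulating factors and their receptors, CSF2RB was called higher. CSF2RB, the shared signalling chain for GM-CSF, IL-3 and IL-5, stood at 5.14, 8.01 and 7.20 CPM at day 45 and at 20.02, 33.5 and 15.0 CPM at day 85, rising 3.37-fold (log2FC 1.75, SE 0.33, adjusted p = 0.0372). Its partner CSF2RA averaged 1.67 ± 0.388 and 2.09 ± 0.480 CPM (log2FC 0.33, SE 0.31, adjusted p = 0.521). CSF3R, the G-CSF receptor of neutrophils, had 8, 3 and 28 counts and then 16, 30 and 15 (adjusted p = 0.529), and its ligand CSF3 had 13 counts in all.

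**Figure D3:**
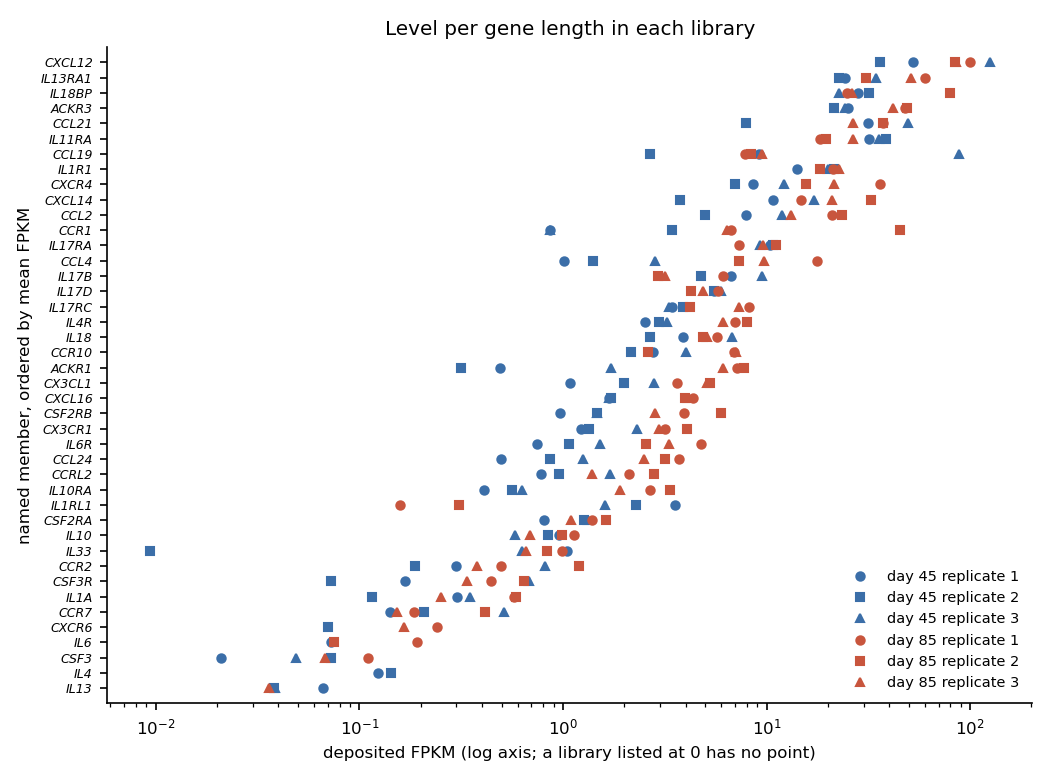
Deposited FPKM of the named members with any count, per library on a log axis, ordered by the mean over the 6 libraries (blue, day 45; red, day 85; marker shape, replicate number). CXCL12 leads with a mean of 80.6, and the ligands IL4, IL13 and IL6 lie below 0.1 on average.

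The 61 members that were not tested had at most 109 counts over the 6 libraries together, and 11 had none: CXCL8, CCL20, CXCR5, CSF2, IL2, IL9, IL20, IL22, IL26, IL28RA and IL31. A further 22 had 1 to 9 counts. The untested member with the most counts was the macrophage chemokine CCL3L1, with 8, 9 and 8 at day 45 and 9, 69 and 6 at day 85. Of the 50 untested members with any count, 4 (8%) had more counts in each day 85 library than in any of day 45, and 2 (4%) had fewer. Over all untested rows with any count the shares were 4.33% and 4.09%. The lymphocyte growth factor IL15 had 1, 3 and 2 counts and then 11, 9 and 10, and the dendritic cell receptor XCR1 had 3, 1 and 2 and then 7, 15 and 10. The eosinophil attractant CCL11 had 2, 1 and 1 and then 5, 26 and 7, and IL12A, a subunit of IL-12, had 2, 1 and 0 and then 7, 4 and 5. The skin chemokine CCL27 had 7, 4 and 7 and then 3, 3 and 3, and the mucosal chemokine CXCL17 had 7, 4 and 4 and then 2, 1 and 2. These 6 were chosen here after their values were seen.

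Several members lie in clusters, and no difference between neighbours was tested. Coordinates are as deposited, on a build that the sources used here do not name. On chromosome 3, IL18RAP, IL18R1, IL1RL1, IL1R1 and IL1R2 lie within 0.678 Mb; IL1RL1 (54374030 to 54518149) was called lower, IL1R1 (54729098 to 54758580) was not called at 0.19, and IL1R2 (54901371 to 54919900) was not called at 2.06. Also on chromosome 3, IL4R spans 19846364 to 19869474. On chromosome 13, CCR9, CXCR6, XCR1, CCR1, CCR2 and CCRL2 lie within 0.439 Mb, and CCR1, CCR2 and CCRL2 had log2 fold changes of 3.56, 0.77 and 0.93. On chromosome 10, CCL21, CCL19, CCL27 and IL11RA lie within 0.0576 Mb, with CCL27 ending 75 bases before IL11RA starts. CXCR4 lies on chromosome 15 at 18124941 to 18128996, ACKR3 on the same chromosome at 150857312 to 150858400, ACKR1 on chromosome 4 at 99221386 to 99222907 and IL10RA on chromosome 9 at 50364900 to 50379299. IL6R lies on chromosome 4 at 104198431 to 104250107, CSF2RB on chromosome 5 at 8415795 to 8440059, and CXCL16 and CCL4 on chromosome 12 at 54264906 to 54269592 and 41048662 to 41049981. IL28A and IL28B overlap by 1455 bases, so their few reads cannot be told apart without strand.

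**Figure D4:**
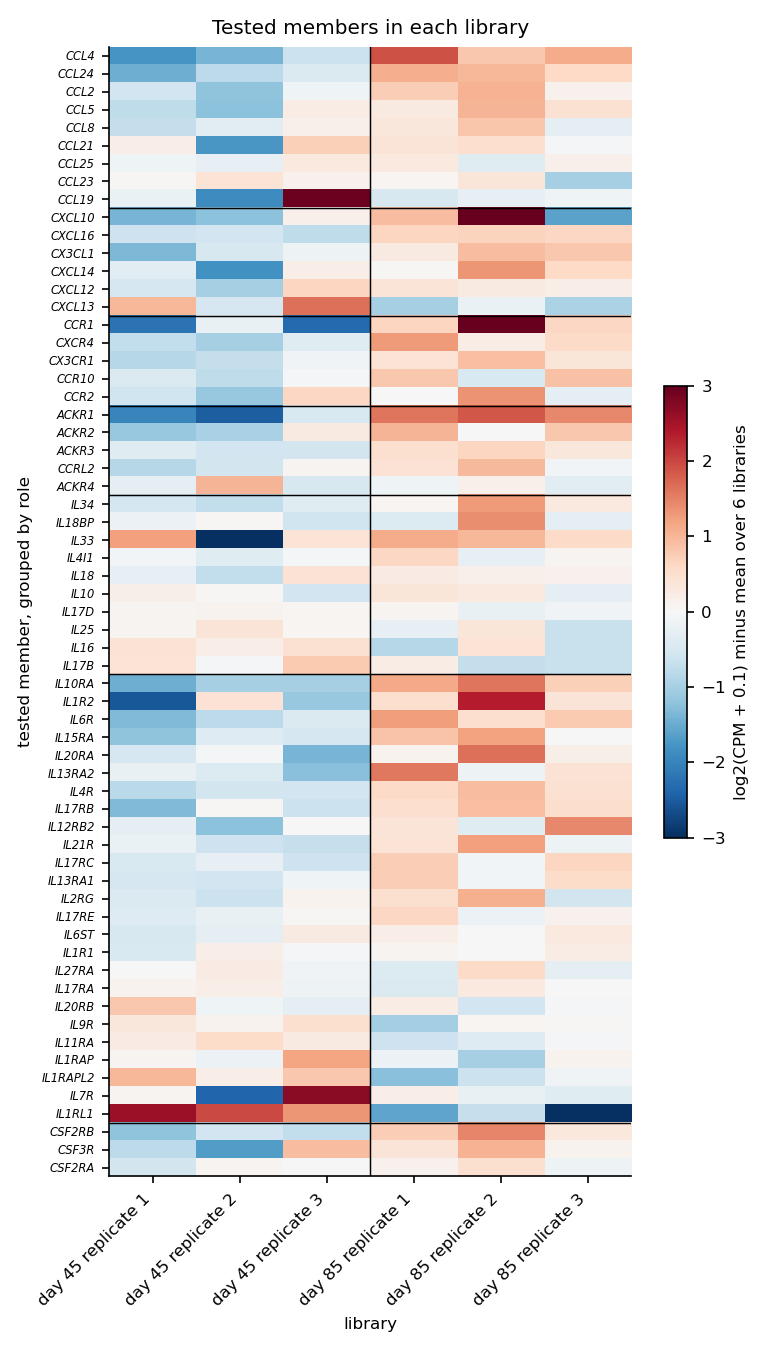
Level of 63 of the 64 tested members in each library, as log2(CPM + 0.1) minus the mean of the gene over the 6 libraries, with colours saturating at 3 either way and lines between role groups. CCL19 and IL7R are high in day 45 replicate 3 alone, CXCL10, CCR1 and IL1R2 peak in day 85 replicate 2, and IL1RL1 is high in all day 45 libraries.

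Other genes of the same pathways were read from lists of 80 entries, of which 63 were tested. In these, 7 were called higher (11.1%, against 3.9% of all tested genes) and 0 lower. At an unadjusted p under 0.05 the counts were 28 and 4, where 15.8% and 13.3% of all tested genes were higher and lower. DESeq2 also called 28 higher and 4 lower, against 12.2% and 10.5% of all genes with an adjusted p. Whether these are the same genes was not compared. Of 16 JAK and STAT genes and their inhibitors, JAK1, a kinase of most interleukin receptors, rose 1.94-fold from 12.1 ± 2.28 to 23.4 ± 4.24 CPM (adjusted p = 0.0444). The STAT-induced feedback inhibitors CISH and SOCS2 rose 3.78-fold and 2.36-fold (adjusted p = 0.0354 and 0.0384). Of 19 genes of IL-1 signalling and NF-kB, TRAF6, an adaptor ligase, rose 1.82-fold and NFKBIA, the NF-kB inhibitor that NF-kB itself induces, 2.37-fold (adjusted p = 0.0379 and 0.0351). Of 13 genes of chemokine receptor signalling, RGS1, which damps G protein signals in leukocytes, rose 4.37-fold from 0.730 ± 0.349 CPM, and ARRB1, a beta-arrestin that takes receptors inside, 1.96-fold (adjusted p = 0.0433 and 0.0447). RGS1, with 7, 9 and 17 counts at day 45, passed the filter only with the help of its day 85 libraries. A difference was therefore built into its passing. Among the 15 ligands and receptors outside the naming rule, such as LIFR and CSF1R, 0 were called in edgeR, while 7 higher and 2 lower reached an unadjusted p under 0.05.

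Markers of several cell types differed between the ages beside the members, the cartilage markers given above among them. The summed level of 9 matched endothelial markers ran from 393 to 631 CPM at day 45 and from 1009 to 1561 CPM at day 85, with 5 of 9 called higher. That of 8 leukocyte markers ran from 86.0 to 128 CPM and from 176 to 556 CPM, with 0 of 7 tested called in edgeR and 6 higher at an unadjusted p under 0.05. For 11 macrophage and monocyte markers the sums were 102 to 187 and 314 to 889 CPM, with 3 of 9 called higher. The 8 osteoclast markers summed to 287 to 1289 and 1874 to 13380 CPM, with 0 of 8 called in edgeR and 8 higher at an unadjusted p under 0.05. The 13 matched T and NK cell markers summed to 9.92 to 14.9 and 13.9 to 26.1 CPM, with CD4 the 1 of 7 called. Red cell markers summed to 17.1 to 21.0 and 44.4 to 200 CPM, with 2 of 6 called higher. These were KLF1, with 0, 1 and 0 counts and then 28, 122 and 18, and SLC4A1, with 8, 4 and 32 and then 298, 706 and 161. KLF1 passed the filter through day 85 libraries alone and SLC4A1 only with their help, so a difference was built into their passing. The 8 markers of pericytes and smooth muscle summed to 821 to 1203 and 1244 to 1657 CPM, with RGS5 and MCAM called higher. The 6 matched skeletal muscle markers summed to 3383 to 7624 CPM at day 45 and to 28140, 2171 and 25230 CPM at day 85, with 0 of 5 tested called in edgeR and 3 higher at an unadjusted p under 0.05. Over all tested genes, 15.8% were higher and 13.3% lower at that unadjusted p, and 3.9% and 2.66% were called. No marker in these lists was at 0 in all 6 libraries. Their part in the changes of the members was not tested.

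Some members were also set against these sums, a comparison added after the values were seen, and whether the ages overlapped varied with the marker list used. CXCR4 per 1000 CPM of endothelial markers was 34.5, 34.7 and 33.8 at day 45 and 42.6, 31.4 and 35.6 at day 85, so the ages overlap. ACKR3 on that scale also overlapped, at 58.5, 61.5 and 39.0 and then 32.3, 56.3 and 39.9. ACKR1 did not, at 1.16, 0.918 and 2.80 and then 4.90, 9.11 and 5.90, but per 100 CPM of red cell markers it was 2.92, 1.72 and 10.3 and then 8.68, 4.59 and 15.3, which overlap. CXCR4 per 100 CPM of leukocyte markers ranged from 11.3 to 19.1 and from 5.71 to 33.5.

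IL10RA per 100 CPM of leukocyte markers was 3.84, 3.81 and 3.63 at day 45 and 10.4, 5.12 and 8.72 at day 85, with no overlap, but per 100 CPM of macrophage markers it was 3.25, 2.47 and 2.98 and then 5.11, 3.20 and 4.90, which overlap. CSF2RB, IL4R and CX3CR1 per 100 CPM of leukocyte markers overlapped between the ages. CCR1 per 1000 CPM of osteoclast markers was 8.96, 8.06 and 6.35 and then 10.2, 10.5 and 8.18, which overlap, whereas its CPM spanned 2.36 to 141. Per 100 CPM of leukocyte markers CCR1 was 2.99, 8.57 and 1.84 and then 9.57, 25.3 and 10.7, with no overlap. Overlap does not show that a ratio stayed the same: the mean for CSF2RB was 6.07 ± 0.495 and then 8.21 ± 2.05, and for ACKR3 53.0 ± 12.2 and then 42.8 ± 12.3 (SD, n = 3). With 3 libraries per age an exact permutation test cannot go below p = 0.1, so these ratios were not tested.

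**Figure D5:**
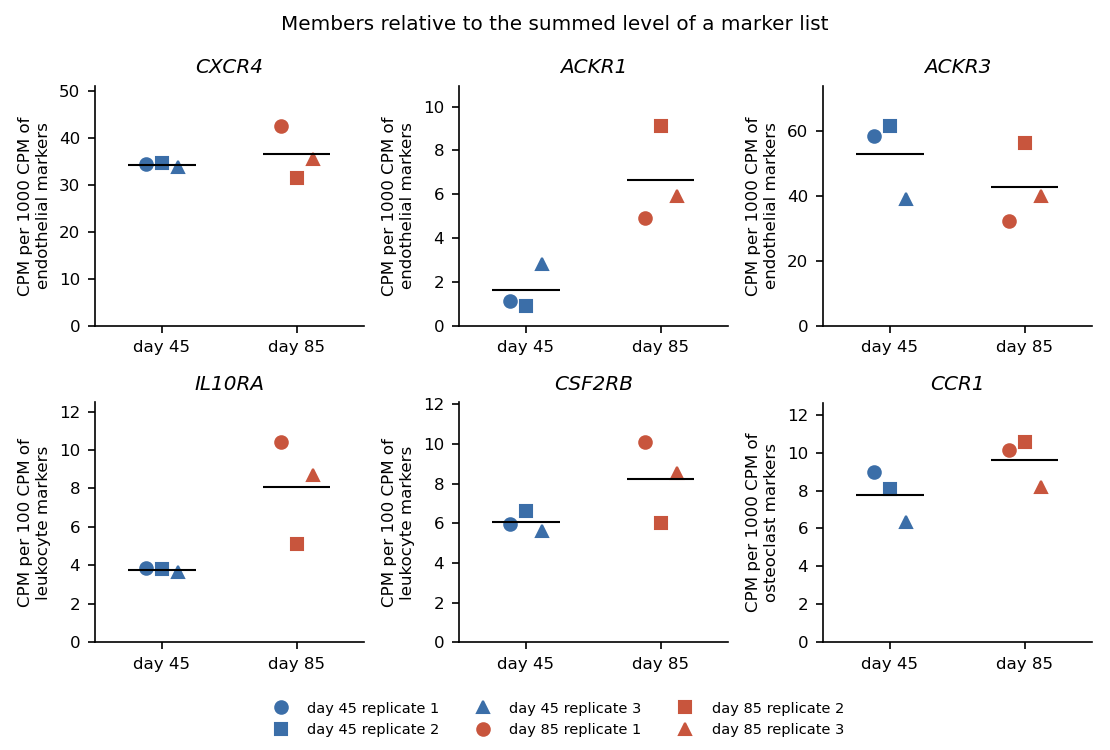
CPM of 6 members per 1000 CPM of summed endothelial or osteoclast markers or per 100 CPM of summed leukocyte markers, in each library (blue, day 45; red, day 85; marker shape, replicate number; line, mean of 3; axes start at 0). With the marker lists drawn, ACKR1 and IL10RA are separated by age, whereas CXCR4, ACKR3, CSF2RB and CCR1 overlap; with red cell, macrophage and leukocyte markers in turn, ACKR1 and IL10RA overlap and CCR1 does not.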

How the data were processed

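Condyle RNA was depleted of ribosomal RNA and its second cDNA strand degraded, per the labels' protocols. The submitters' processing notes name HISAT2; how reads were counted, with which strand setting, build and annotation, is not given in the sources used. The authors deposited whole-number read counts per gene and FPKM values for the same libraries. For 10748 genes with at least 50 counts everywhere, the deposited FPKM equalled the count per library total times a factor per gene, within 0.00179%.

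Groups follow the ages in the sample titles. Counts were tested in edgeR 4.0.16 (R 4.3.3): filterByExpr by age with a minimum count of 10, here 0.675 CPM in 3 libraries; TMM; robust quasi-likelihood test on age alone. The SE is the log2 fold change divided by the square root of F. limma 3.58.1 and DESeq2 1.42.0 were alternatives, with other scalings, filters, a replicate block, summed rows and each library left out. On counts simulated for the day 85 against day 45 comparison (14862 genes, 200 of them changed, 3 simulations) the test recovered 79.7% of 4-fold changes, and 6.62% of its calls were false. The simulated libraries had no 1 library standing apart, as day 85 replicate 2 does, so these rates need not hold for the data.

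Members, gene lists and roles were chosen with earlier results of these data known. Named members are all called ones, CXCR4, ACKR1, IL4R and IL10RA, the 3 highest by FPKM in each role, and ligand or receptor partners of these; 14 more were named after their values were seen. The values of 1 tested member are not reported here. Symbols in the pathway and marker lists came from the table or, where it had none, from a table of IDs and symbols. Levels near 1 CPM rest on 12 to 17 counts per library.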

Additional observations from a re-analysis of the deposited data

How the results depend on the processing

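Leaving out 1 library at a time gave 0 to 1884 genes called higher and 0 to 1528 lower over all genes, 0 to 14 members called higher and 0 to 2 lower, and 0 to 15 partner genes higher and 0 to 2 lower; the upper ends are without day 85 replicate 2. The median over tested members ran from 0.53 to 1.01. In those fits 5 to 9 members did not overlap with day 85 below, and 24 to 36 with day 85 above. Separation is easier with a library fewer. The share of all genes that do not overlap was taken in the main fit alone, so non-overlap counts under other settings have no background. Under other settings, DESeq2 called 2052 genes higher and 1764 lower, 28 members higher and 4 lower, and 28 partner genes higher and 4 lower, and had 7 members not overlapping with day 85 below, against 8 with no filter. limma-voom called 0 members lower, since IL1RL1 was lost. limma-trend on log2(FPKM + 1) gave a median of 0.42, as a larger pseudocount shrinks low genes, and on log2(FPKM + 0.1) it called 4 partner genes higher; both, and library totals as scaling, called 1 partner gene lower. With library totals the split over all genes was 437 higher and 598 lower, against 586 and 400.

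With a replicate block, 465 genes were higher and 217 lower, and 9 members were higher and 1 lower: CCL4, CCL24 and IL6R lost their call and CCR1 and IL1R2 gained one. The titles do not say that a replicate number is shared between ages, so the block was kept as an alternative. Same-numbered libraries deviated together by correlations of 0.0346, 0.302 and 0.103, and differently numbered ones by -0.319 to 0.285. Day 45 replicate 3 deviated most like day 85 replicate 1 (0.285). These correlations do not settle whether the numbers are pairs. Directions turned without 1 library for CCL19 (-2.39 to 0.53, highest without day 45 replicate 3), IL7R (-2.18 to 0.58, same library), CCL21 (-0.19 to 0.76, lowest without day 45 replicate 2), IL17RA (-0.26 to 0.0745, highest without day 85 replicate 1) and IL18BP (-0.11 to 0.99, lowest without day 85 replicate 2), none of them called. The sign also changed for ACKR4 (-0.64 to 0.33), CCL23 (-0.60 to 0.0263), CCL25 (-0.0955 to 0.25), IL20RB (-0.54 to 0.10) and IL27RA (-0.39 to 0.13), likewise not called. Summing rows of 1 name, RLE or upper-quartile scaling and both other filters kept all 11 calls. The causes were not tested.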

Other observations

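Day 45 replicate 3 held the highest level of its age for several genes of lymphoid stroma and lymphoid cells. CCL19 had 921 counts there against 111 and 28, IL7R 88 against 14 and 1, CXCL13 45 against 30 and 8, CCR7 22 against 7 and 9, and CCL22 11 against 1 and 0. In day 45 replicate 2, in turn, IL33 had 1 count against 129 and 67, and CCL21 154 against 705 and 953.

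A row that the table leaves unnamed carries the symbol IL2RB, the beta chain of the IL-2 and IL-15 receptors, in a table of IDs and symbols. It had 14, 6 and 8 counts at day 45 and 33, 116 and 22 at day 85 (log2FC, the log2 fold change, 2.67, SE 0.70, adjusted p = 0.0683), and lies outside the naming rule.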
